A study of Pseudotsuga menziesii with 26 samples.

Results

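Libraries of similar sequencing depth were used to ask what a cerium dioxide (CeO2) nanoparticle catalyst in diesel fuel changes in the needles of Douglas-fir (Pseudotsuga menziesii) seedlings held in the exhaust. The exhaust of the fuel with the additive is called DECe and that of the fuel without it DE. The 9 libraries, of 26 in the series, were chosen by their total count, which was under 10000000, among those of both groups. They are DECe replicates 5, 10 and 15 (n = 3) and DE replicates 1, 2, 4, 6, 8 and 12 (n = 6). Half-sibling seedlings, allotted to the atmospheres at random, received exhaust for 6 h a day, 5 days a week and 2 weeks, and filtered air at all other times. Light was on for 16 h a day in every atmosphere, at 280 µmol per s and m2 of photosynthetically active radiation. All were sampled in 2012, each library holding poly(A) RNA from lateral-stem needles that had grown in 2011, the year before. Each atmosphere had 1 chamber of 984 L, so an atmosphere and its chamber cannot be told apart, and the p-values below measure the spread between seedlings of a chamber.

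A cerium additive is a fuel-borne catalyst that helps soot burn off, and it changes both the particles and the gases that an engine emits. Conifer needles live for several years, take up gases through stomata and collect particles on their waxy surface. Poly(A) sequencing reads out messenger RNA as shares of a library, and in bulk needles fewer cells of a type and less RNA per cell cannot be told apart. The files do not pair the transcript identifiers with gene names, so each transcript is named by its identifier and its length in nucleotides (nt), as implied by the deposited values, without a function, and the tissue label could not be set against marker genes.

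That total count ran from 3381425 to 6675677 in DECe and from 2467403 to 9017951 in DE and is given as a description. The libraries just inside the limit were DE 6 at 9017951 and DE 2 at 8547654 counts, and those just outside were DECe 13 at 12404373 and DECe 2 at 20559692 counts. The 4 deeper DECe libraries, and the 1 deeper DE library, were left out of the comparison. Of 173882 transcripts in the table, 30375 had a count in at least 1 of the 9 libraries and 2104 in all 9.

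Similar totals did not give equal profiles. The 10 most abundant transcripts of a library took 93.3% of the counts in DECe 5, 91.3% in DECe 10 and 80.6% in DECe 15. In DE they took 92.8%, 94.1%, 94.9%, 95.4%, 93.1% and 89.3% in replicates 1, 2, 4, 6, 8 and 12. DECe 15 was thus the lowest of all 9 and DE 12 the lowest of its group. The means were 88.4% ± 6.81 in DECe and 93.3% ± 2.21 in DE (SD, n = 3 and 6), a difference that did not pass (p = 0.107 by a two-sided exact permutation test over all 84 splits, adjusted p = 0.238 over 5 measures of composition). The smallest p this design allows is 0.0119.

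The other 4 measures did not pass either, with adjusted p of 0.238 to 0.381 in exact permutation tests. The 1000 most abundant transcripts of a library took 97.2% ± 2.48 of the counts in DECe and 99.2% ± 0.790 in DE (SD, n = 3 and 6). With every library thinned to the same total of 2467403 counts, 12458 ± 2410 transcripts were detected in DECe and 7971 ± 4214 in DE (SD, n = 3 and 6). All 3 DECe libraries, at 11477, 10694 and 15204, lay above the 5 DE libraries other than DE 12, which ran from 4390 to 8923, while DE 12 was the highest of all at 15972. The mean transcript length, weighted by counts, was 3867 ± 185 nt in DECe and 4023 ± 288 nt in DE (SD, n = 3 and 6). Transcripts without a count in any of the 6 Air Control libraries took 0.0497% ± 0.0131 of the counts in DECe and 0.0695% ± 0.0261 in DE (SD, n = 3 and 6). Thinning to one total does not equalise the counts outside the dominant transcripts (the 23 that reach 1% in any library of the series), which before thinning were 358957 to 535427 in DECe and 151321 to 684977 in DE. Leaving out 1 library moved both results. Without DE 12, the share of the 1000 most abundant differed by -2.24 percentage points between DECe and DE and the number detected by 6088 (exact permutation tests, adjusted p = 0.0446 for both). Without DECe 15 the differences were -0.52 percentage points and 3115 transcripts (exact permutation tests, adjusted p = 0.786 for both), and without both libraries -0.82 and 4715 (adjusted p = 0.119 for both).

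**Figure D1:**
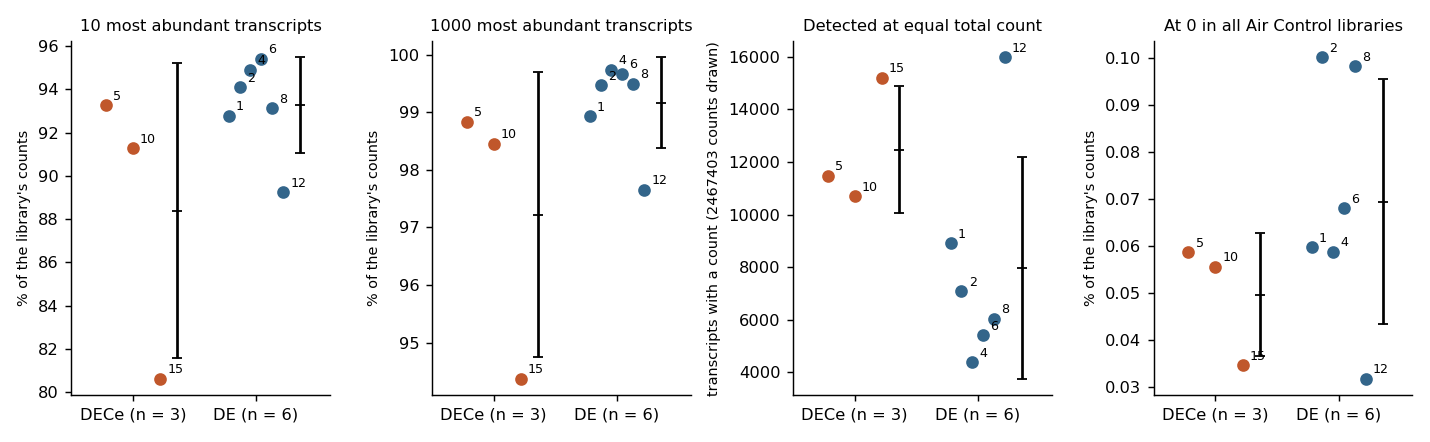
Composition of the 9 libraries, DECe left and DE right in each panel, one point per library with its replicate number, and beside the points the mean with its SD. From left to right the panels give the share of counts in the 10 and the 1000 most abundant transcripts of each library, the number of transcripts with a count after thinning to 2467403 counts, and the share of counts in transcripts at 0 in all Air Control libraries; the axes do not start at 0, and DECe 15 and DE 12 sit apart from the others of their groups in the first panel, at 80.6% and 89.3%.

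The same pair stood apart in the profiles as a whole. On log2 CPM (counts per 1000000, scaled by edgeR's TMM factors), the shortest of all distances between libraries, 64.9, joined DECe 15 and DE 12, and each was the nearest neighbour of the other. DECe 5 and DECe 10 were nearest to each other, at 80.5, and so were DE 2 and DE 6, at 73.9. DE 1 was nearest to DECe 5, at 94.0. In all, 6 of 9 libraries had their nearest neighbour in their own group. The mean distance was 98.1 within DECe, 114 within DE and 119 between the groups. The groups took 22.3% of the squared distance, which did not pass (R2 = 0.223, exact permutation test over all 84 splits, p = 0.0952). Without DE 12 the value was R2 = 0.354 (exact permutation test, p = 0.0179), without DECe 15 it was R2 = 0.155 (exact permutation test, p = 0.357), and without both DE 12 and DECe 15, a choice made after seeing the data, R2 = 0.274 (exact permutation test, p = 0.0476).

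**Figure D2:**
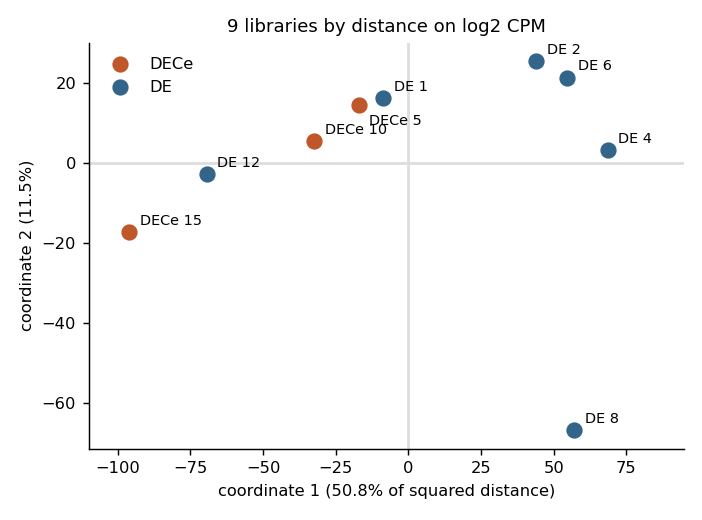
Principal coordinates of the distances between the 9 libraries on log2 CPM, one labelled point per library, DECe in orange and DE in blue. Coordinate 1 holds 50.8% of the squared distance and sets DECe 15 and DE 12 at one end and DE 2, 4, 6 and 8 at the other, with DE 1 next to DECe 5 and DECe 10; coordinate 2 holds 11.5% and sets DE 8 apart.

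The counts were concentrated in a few long and a few short transcripts that both groups shared. The 3 with the highest mean share over the 9 libraries were psme_t002753 (4295 nt), psme_t001906 (4727 nt) and psme_t000146 (8738 nt). Of the counts, psme_t002753 took 56.5%, 50.6% and 23.7% in DECe 5, 10 and 15. In DE 1, 2, 4, 6, 8 and 12 it took 36.2%, 49.3%, 37.2%, 61.7%, 38.5% and 26.2%. The groups overlapped over nearly their whole range, with DECe 15 and DE 12 lowest in each. The means were 43.6% ± 17.5 in DECe and 41.5% ± 12.3 in DE (SD, n = 3 and 6; p = 0.821, two-sided exact permutation test). The share of psme_t001906 was 17.0% ± 2.73 in DECe and 21.3% ± 7.28 in DE, and that of psme_t000146 was 8.41% ± 2.14 in DECe and 10.6% ± 3.61 in DE (SD, n = 3 and 6, exact permutation tests, adjusted p = 0.571 for both over these 3 transcripts). After TMM scaling both lay lower in every DECe library than in any DE library. Their log2 fold changes of DECe over DE were then -1.71 and -1.88 (edgeR, adjusted p = 0.503 for both). With library sizes alone each was at -0.33.

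A short transcript was abundant in all 9 libraries. The 306 nt transcript psme_t193128 (picked out once the values had been seen) made up 7.83%, 6.50% and 3.24% of the counts in DECe 5, 10 and 15. It held 7.47%, 10.2%, 6.16%, 8.51%, 8.62% and 4.34% in DE 1, 2, 4, 6, 8 and 12. Within each group the library that stood apart, DECe 15 or DE 12, was the lowest. The deeper libraries held far less, between 0.0286% and 0.235% in the 4 of DECe, 0.00234% in the 1 of DE and at most 0.0297% in the 6 of Air Control. In DECe Gas Phase, the exhaust with its particles filtered out, replicate 4 was an exception to this split by depth. Among libraries under 10000000 counts the transcript held 9.83% in replicate 5 and 0.0193% in replicate 4. The deeper replicates 2, 3, 7 and 10 held 0.00699%, 0.756%, 0.00831% and 0.168%. Per length, its level was 191471 ± 77095 RPKM in DECe and 246603 ± 67362 RPKM in DE (SD, n = 3 and 6), against 101514 ± 40764 RPKM in DECe and 96682 ± 28727 RPKM in DE for psme_t002753. By this scale the short transcript was the more abundant of the pair in both groups.

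The comparison across transcripts asked which needle mRNAs differ with the additive once depth is alike. Transcripts with at least 10 counts in at least 3 of the 9 libraries were tested, 4195 in all. None passed an adjusted p of 0.05 (edgeR quasi-likelihood test, Benjamini-Hochberg adjusted, lowest adjusted p = 0.503, 0% called). An unadjusted p under 0.05 was reached by 399 transcripts (9.51%), 115 of them higher in DECe (2.74%) and 284 lower (6.77%). limma-voom called 0 as well, with 1301 at an unadjusted p under 0.05, and DESeq2 called 32, of which 1 was higher and 31 lower in DECe. The groups did not overlap in 168 transcripts that were higher in all DECe libraries (4%) and in 56 that were lower in all of them (1.33%).

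That no transcript passed does not show that the needles were alike. The 95% interval of a log2 fold change reached a median of 1.92 to either side, and for 351 of 4195 transcripts (8.37%) it lay within 2 on the log2 scale, that is, excluded a 4-fold change in either direction. The common dispersion was 0.679. Scaling moved the centre of the fold changes. In edgeR their median over the 4195 transcripts was 0.38 on the log2 scale by TMM. It was 0.51 by edgeR's RLE factors, the kind of scaling DESeq2 uses, and 1.67 by plain library sizes. All changes below use TMM unless another scale is named. The 2 libraries that stood apart carried weight here too. Without DE 12 there were 1104 transcripts at an unadjusted p under 0.05 and 2 past the adjusted threshold, and without DECe 15 there were 164 and 1.

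**Figure D3:**
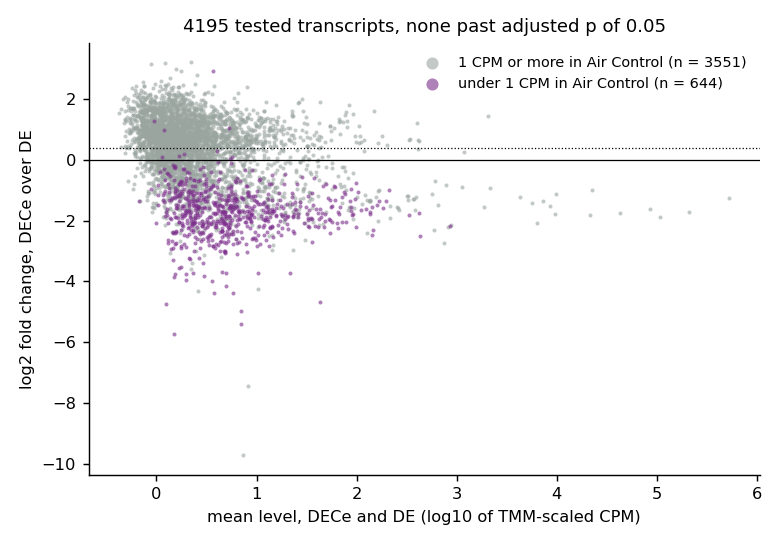
Log2 fold change of DECe over DE (vertical axis) against the mean level in both groups (horizontal axis, log10 of TMM-scaled CPM) for the 4195 tested transcripts, purple where the mean level in Air Control was under 1 CPM (n = 644) and grey otherwise. The solid line is 0 and the dotted line the median of all, 0.38; the purple points lie almost wholly below 0.

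Transcripts scarce in the Air Control libraries and transcripts plentiful there had median estimates on opposite sides. All 6 Air Control libraries were deeper, at 24924192 to 43560508 counts. These classes therefore cannot tell the level in filtered air from the level in deeper libraries. Of the tested transcripts, 154 had 0 counts in all 6 Air Control libraries, and their median log2 fold change was -1.88, with 98.7% of the estimates lower in DECe. Another 490 averaged under 1 CPM in Air Control, with a median of -1.69 and 98.4% lower. The 2851 transcripts at 1 to 100 CPM in Air Control had a median of 0.56, and the 700 above 100 CPM had 0.66, beside 0.38 over all 4195. Of those 700, 18.6% had estimates lower in DECe. Among these were the most abundant, psme_t002753 at -1.27, psme_t001906 at -1.71 and psme_t000146 at -1.88, so the median does not speak for the dominant transcripts. No transcript of any class passed the adjusted threshold. At an unadjusted p under 0.05 the 4 classes, from scarce to plentiful, held 0, 1, 80 and 34 transcripts higher in DECe and 49, 151, 76 and 8 lower. These numbers depended on the scaling: in both directions together they were 49, 152, 156 and 42 by TMM, and 2, 3, 434 and 242 with library sizes alone.

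The scarce classes held little of the RNA. On average the 490 took 0.703% of the counts in DECe and 0.972% in DE, and the 154 took 0.0320% in DECe and 0.0459% in DE. By library the share of the 490 was 0.792%, 0.869% and 0.449% in DECe 5, 10 and 15, and it ran from 0.681% to 1.44% in DE. The groups overlapped, with DECe 15 lowest. Under library sizes alone the median log2 fold changes kept their order, at -0.55 and -0.39 for the scarce classes and 1.85 and 1.97 for the others. These are medians over transcripts and not shares of a class. The class above 100 CPM took 91.4% of the counts in DECe and 92.9% in DE. That at 1 to 100 CPM took 6.39% in DECe and 5.63% in DE. Without both DECe 15 and DE 12 the 4 medians were -1.75, -1.58, 0.60 and 0.65. Among transcripts with a mean of at least 50 counts, the class at 1 to 100 CPM had its median on the other side, at -0.95 (n = 134), while the class above 100 CPM was at 0.96 (n = 416).

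Short transcripts went with the scarce ones, of which 528 of 644 were under 1000 nt. The median log2 fold change was -1.64 for the 350 transcripts under 500 nt and -1.15 for the 467 of 500 to under 1000 nt. It was 0.65 for the 1358 of 1000 to under 2000 nt and 0.50 for the 2016 of 2000 nt and over. Under library sizes alone the class of 500 to under 1000 nt lay at 0.10. The filter on low counts bears on these medians. It was passed by 811 transcripts with at least 10 counts in all 3 DECe libraries and in fewer than 3 of DE. Another 57 had 10 counts in no DECe library and passed it through DE libraries alone. These rules differ, so 811 and 57 do not measure how one-sided the filter is.

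**Figure D4:**
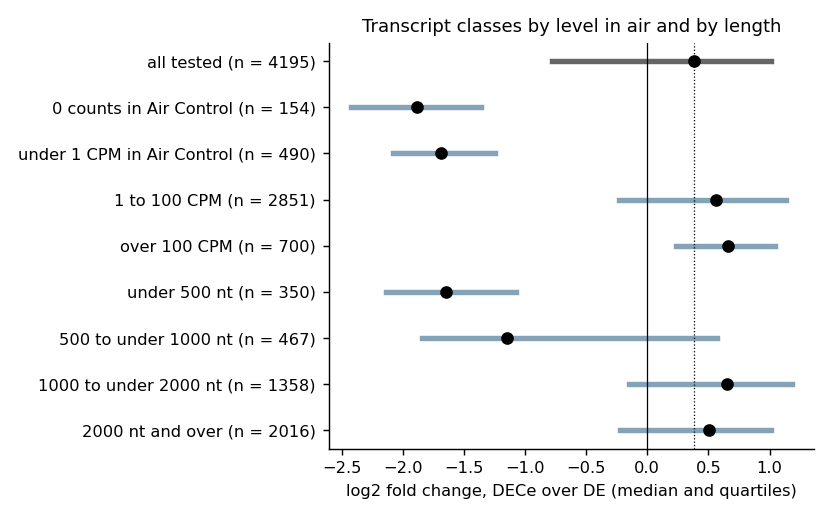
Median (point) and quartiles (bar) of the log2 fold change of DECe over DE for all tested transcripts and for classes by mean level in Air Control and by length, with the number of transcripts in each. The solid line is 0 and the dotted line the median of all, 0.38; the 2 classes under 1 CPM in Air Control and both classes under 1000 nt have medians between -1.88 and -1.15, and the other classes between 0.50 and 0.66.

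Since none passed, the transcripts named are the 2 in each direction with the smallest p. On the higher side, psme_t032817 (1395 nt) had 46, 19 and 48 counts in DECe 5, 10 and 15. It had 2, 0, 0, 1, 0 and 17 counts in DE 1, 2, 4, 6, 8 and 12. Every DECe library lay above every DE library after scaling, with means of 4.06 ± 2.90 CPM in DECe and 0.332 ± 0.444 CPM in DE (SD, n = 3 and 6). On the log2 scale DECe was 3.21 ± 0.99 above DE (SE), with an adjusted p of 0.503 by edgeR. It had 10 or more counts in 3 DECe libraries and 1 DE library, so it entered the test through DECe. It was also picked for its small p, so its direction and the lack of overlap are no support for a difference. A floor of 3 counts came to 0.182 to 0.480 CPM in DECe and 0.193 to 1.46 CPM in DE, so the level of DE rests on few reads.

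The 1955 nt transcript psme_t020742 had 23, 140 and 372 counts in DECe 5, 10 and 15, and 14, 7, 1, 5, 4 and 80 counts in DE 1, 2, 4, 6, 8 and 12. Its groups overlapped, DECe 5 lying below DE 1 and DE 12 after scaling. The means were 13.4 ± 9.45 CPM in DECe and 2.47 ± 1.82 CPM in DE (SD, n = 3 and 6). DECe was 2.39 ± 0.77 above DE on the log2 scale (SE), with an adjusted p of 0.503 by edgeR. With 10 or more counts in 3 DECe and 2 DE libraries, it passed the filter only with the help of DECe. It too was picked for its small p, so its direction follows from the choice. Over the 6 Air Control libraries psme_t032817 averaged 29.4 CPM of the total count, which is in the class of 1 to 100 CPM. The mean of psme_t020742 was 207 CPM, with a range from 33.0 CPM in Air Control 15 to 847 CPM in Air Control 11.

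On the lower side, psme_t126558 (419 nt) had 1, 0 and 0 counts in DECe 5, 10 and 15. It had 5, 10, 12, 14, 8 and 9 counts in DE 1, 2, 4, 6, 8 and 12, so every DE library held it and the groups did not overlap. It entered the test through DE libraries alone and was picked for its small p, so its direction follows from the choice (edgeR adjusted p = 0.503). It had 0 counts in all 6 Air Control libraries, in the deeper DE library and in 3 of the 4 deeper DECe libraries. The 1410 nt transcript psme_t032393 had 0 counts in all 3 DECe libraries and 29, 103, 31, 148, 0 and 0 counts in DE 1, 2, 4, 6, 8 and 12. It was thus missing from a pair of DE libraries as well. It too entered the test through DE libraries alone and was picked for its small p, so its direction is no support for a difference. At the floor of 3 counts per library its mean was at least 46.0-fold lower in DECe than the 14.8 ± 16.4 CPM of DE (SD, n = 6) after TMM scaling, at least 28.3-fold without DE 6, and at least 11.7-fold on plain CPM of the total count. The adjusted p of 0.503 (edgeR) became 0.0180 without DECe 15 and 0.0200 without DE 12.

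**Figure D5:**
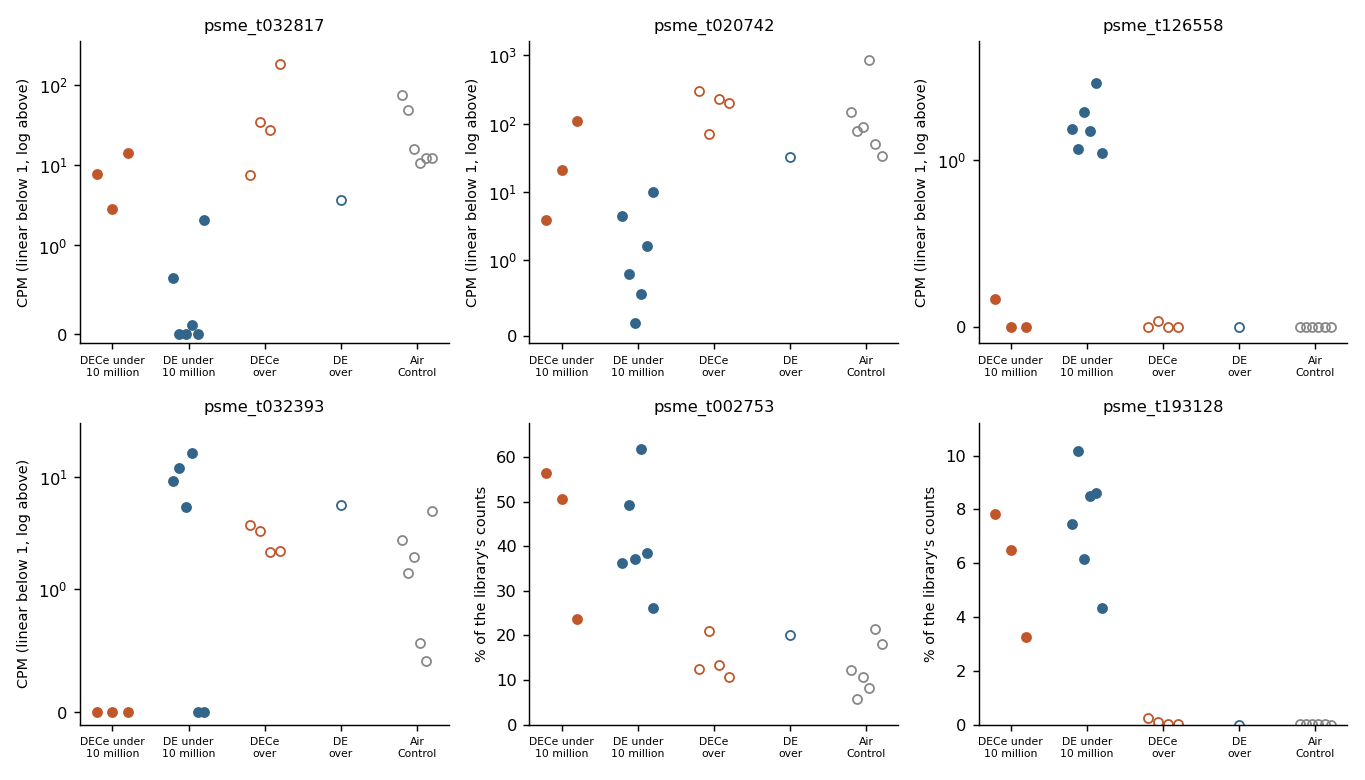
Level of 6 transcripts in each library, filled points for the 9 libraries under 10000000 counts and open points for deeper ones, in the order DECe, DE, deeper DECe, deeper DE and Air Control. The first 4 panels give CPM of the total count on an axis that is linear below 1 and logarithmic above, and the last panels give the percent of the counts; psme_t032817 lies higher in the 3 DECe than in the 6 DE libraries, psme_t126558 lower, and psme_t193128 is between 3.24% and 10.2% in the 9 libraries and at most 0.235% in the deeper ones shown.

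The deeper libraries, which the comparison did not use, gave a second look at the direction, with no test because DE has 1 of them. Direction in the deeper libraries was taken on plain CPM of the total count, with 0.1 added and no TMM factors. Among the 9 shallow libraries it came from edgeR with TMM, so the scales differ. Of the 115 transcripts higher in DECe at an unadjusted p under 0.05, 88 were higher in the mean of the 4 deeper DECe libraries than in the deeper DE library (76.5%, beside 54.0% of all tested transcripts with a count there). Of the 272 counted transcripts lower in DECe at that threshold, 40 were lower there too (14.7%, beside 46.0%), and 232 were higher. Most of this second set was thus lower in DECe among shallow libraries by TMM and scored higher in DECe among deep ones by plain CPM. In Air Control, 49 of the 284 lower transcripts were at 0 and 151 under 1 CPM, beside 154 and 490 of all 4195. A scarce transcript with 0 counts in the deeper DE library scores as higher in DECe. The reversal can therefore rest on few counts, or on the change of scale, and neither was tested. Of the 4 named transcripts, psme_t032817 was at 7.54 to 187 CPM in the deeper DECe libraries and 3.73 CPM in the deeper DE library, and psme_t020742 at 70.9 to 295 CPM and 32.4 CPM. The level of psme_t032393 was 2.13 to 3.70 CPM in the deeper DECe libraries and 5.69 CPM in the deeper DE library. These 3 kept their direction at depth, each resting on a single DE seedling.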

How the data were processed

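The deposited count table holds the authors' raw counts per transcript and library, as whole numbers, per the file headers. The deposited RPKM table (counts per kilobase and per 1000000 counts, per its file header) was used for lengths, for levels per length and in 2 alternatives. CASAVA 1.8.2 is the only tool in the submitters' processing notes. Aligner, counter, transcriptome, strand and the treatment of shared reads: not given in the sources used here. Near-identical copies can therefore not be told apart.

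The test was edgeR 4.0.16 (R 4.3.3) on counts: TMM factors on full column totals, trended dispersion, robust quasi-likelihood F test, Benjamini-Hochberg adjustment over 4195 transcripts. The SE printed is the log2 fold change divided by the square root of F. Composition and distances (log2 CPM, prior count 2) had exact permutation tests. Alternatives used DESeq2 1.42.0 and limma 3.58.1. The test fits and the permutation tests were tried on simulated data. The counts simulated for the fits had a lower dispersion than the real ones and library profiles alike apart from the planted changes. They thus do not cover the differences in composition seen here. The classes, the lengths and the directions in deeper libraries were not simulated. Every pair of libraries differed by more than sampling noise (chi-square over its degrees of freedom at least 30.8), so none was a second draw of the same reads. Each counted once, as labelled. This check cannot show that the libraries came from separate seedlings. Named transcripts were to be the 2 largest changes each way past the threshold with a median of 20 CPM, else the smallest p each way, plus the 3 most abundant. The libraries, classes and alternatives were chosen with earlier results of these data known.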

Additional observations from a re-analysis of the deposited data

Results flagged for a closer look

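DE 12 had 21999 transcripts with a count, far above the other 5 DE libraries, which had 6049 to 11770. The gap to the next library was 0.641 of the group's range, beyond what Dixon's test allows for 6 values. This flag is for libraries of unequal total. Thinned to 2467403 counts, DE 12 had 15972 transcripts with a count and the other 5 had 4390 to 8923, a smaller lead. It was 1 flag among 16 sets of 6 DE values examined, and chance flags about 1 in 20. DE 12 also had the most counts outside the 23 transcripts that pass 1% in any library, 684977. The DECe libraries had 358957 to 535427 and the other DE libraries 151321 to 468956.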

How the results depend on the processing

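The count of 0 transcripts past the threshold held in 15 of 19 other settings. It was 3 with no filter on low counts, 32 with DESeq2, 54 with all 26 libraries and 1 without both DECe 15 and DE 12; the cause was not tested. Of the 54, 35 passed the filter used here, with the same sign, and the libraries are shared. Leaving out 1 library at a time gave 0 to 2. The 9 libraries share no replicate number; over all 14 DECe and DE libraries, where 3 numbers recur, a fit with the replicate block gave 0. R2 ranged from 0.155 (without DECe 15) to 0.354 with 1 library left out and was 0.274 without both. Over the same omissions the difference in the share of the 1000 most abundant was -2.75 to -0.52 percentage points, and in transcripts detected 3115 to 6088. The difference in mean length was 0.534 nt without both. The log2 fold change of psme_t002753 was -1.27 by TMM and on the other side, at 0.0704 with library sizes alone and at 0.0250 on either RPKM scale. Depth limits the low transcripts, since 3 counts came to as much as 1.46 CPM.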
